A study of Glycine max with 12 samples.

Results

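Glyma.04G022800, Glyma.04G157500, Glyma.11G107600 and Glyma.03G229800 are 4 soybean genes of sugar-related enzyme families, taken from a counted set of 53808 genes. Glyma.04G022800 is named only as a GDSL gene, Glyma.04G157500 and Glyma.11G107600 are glycoside hydrolase (GH) genes, and Glyma.03G229800 is named only as a glycosyltransferase (GT) gene. They were chosen by the line difference at high temperature (HT): among the sugar-related genes that the study displayed, they were lower in the overexpression line there, while other displayed genes of their families were higher. The line difference at HT, the heat change within each line and the difference between these 2 heat changes are therefore given as a description and without a test. The line difference at normal temperature (NT) came from other libraries and was tested, and so was the heat change averaged over the lines, which weights both lines alike at each temperature. The heated libraries used for the choice enter that average.

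Flower buds were sequenced by RNA-seq from *GmMYB21a-OE2*, a transgenic line that overexpresses *GmMYB21a* from the pTF101.1 vector, and from its recipient TL1 (Tianlong No. 1, called WT in the library titles), a restorer line for hybrid seed production. Both lines were kept at 28 °C by day and 22 °C by night (NT) or at 40 °C by day and 34 °C by night (HT), with 3 libraries in each of the 4 groups. Buds of the upper, middle and lower parts of plants at the first flowering stage were sampled, so each library mixes bud stages, and 1 overexpression line stands for the transgene. The titles place 6 libraries at NT and were followed, although the labels give high temperature as the treatment of every library. The study describes its replicates as biological and independent, while the labels do not say how the 3 libraries of a group were drawn. The p-values set a difference against the spread between these libraries.

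Total counts lay between 32058303 and 39654590 per library. *GmMYB21a* was taken to be Glyma.19G006500, a MYB gene annotated as related to protein 305, and its mean level was 5.72 CPM in TL1 and 39.5 CPM in *GmMYB21a-OE2* at NT, and 0.941 and 11.1 CPM at HT. CPM are read counts scaled to a common library size after TMM normalization. Pairs of libraries of the same group differed by a chi-square per degree of freedom of 2.71 to 5.09, apart from replicate 3 of heated *GmMYB21a-OE2*, which stood apart from replicates 1 and 2 at 14.8 and 11.7. For the 4 genes, the percentages of heated TL1 and of the NT level are also given without this library, as means of the other 2. So are their heat changes, from fits without it.

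Plant cell walls are built from cellulose, xyloglucan and pectin, and their sugar chains are made by glycosyltransferases, which pass a sugar from an activated donor to an acceptor, and trimmed by glycoside hydrolases, which cut the bond between sugars. Polygalacturonases (GH family 28) cut the galacturonic acid backbone of pectin, and beta-galactosidases (GH family 35) take galactose from the ends of side chains. GDSL esterases and lipases are a large plant family of hydrolases named after a short motif near the active serine. In flowers, pectin-cutting enzymes are known from pollen, whose tube wall is rich in pectin, and in *Arabidopsis* GDSL proteins are part of the pollen coat.

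In brief, all 4 genes fell with heat and 3 of them were already lower in *GmMYB21a-OE2* at NT. The NT differences of these 3 were small and depended on the fit. In a fit to all 12 libraries, 1 of the 4 genes was called lower at NT, and 0 were when a log2 fold of 1 was also required. The GDSL gene and both GH genes had 75.4% to 79.4% of the TL1 level in *GmMYB21a-OE2* at NT and 38.9% to 46.4% at HT. The GT gene had the opposite line difference at NT, where its mean level in *GmMYB21a-OE2* was 2.16 times that of TL1.

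**Figure D1:**
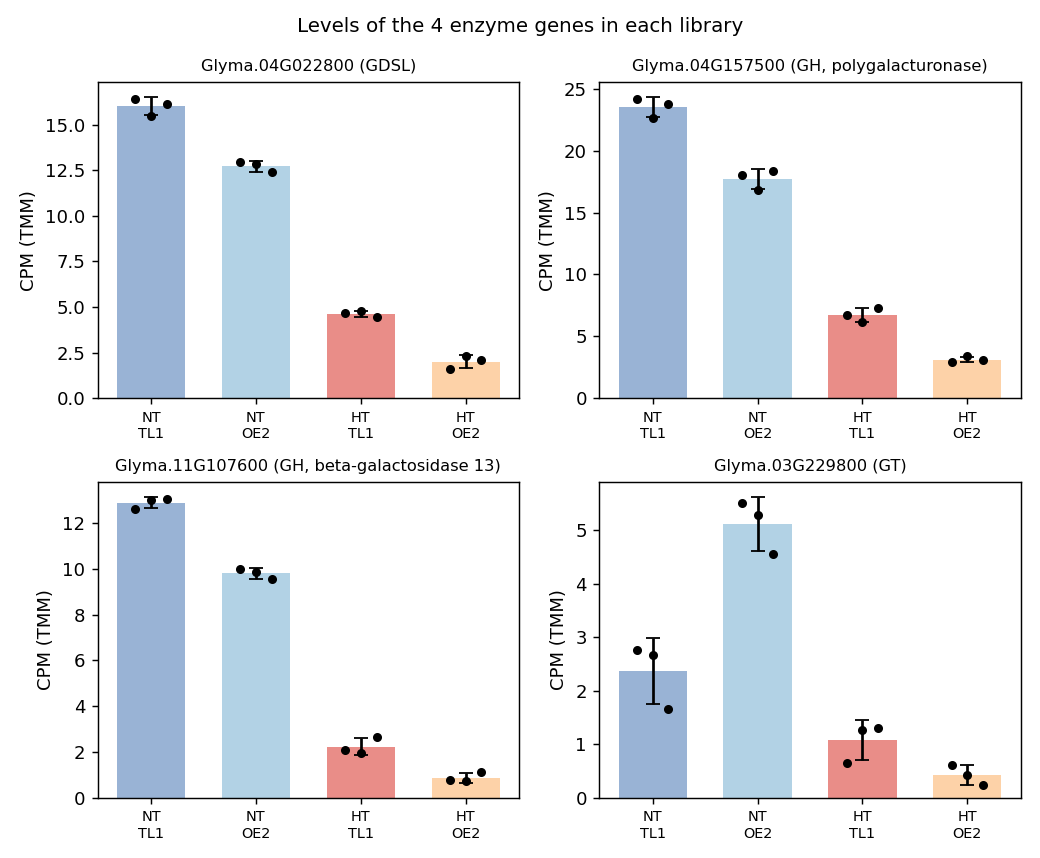
Level of each of the 4 genes in CPM on linear axes that start at 0, for TL1 and *GmMYB21a-OE2* (OE2) at NT and HT. Bars are means, error bars the SD over 3 libraries, and points single libraries. For the GDSL and GH genes the bars step down from NT TL1 to HT OE2, whereas the GT gene has its highest bar, 5.11 CPM, in OE2 at NT.

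The GDSL gene Glyma.04G022800 was measured at 16.4, 15.5 and 16.2 CPM in the 3 TL1 libraries at NT and at 12.9, 12.8 and 12.4 CPM in those of *GmMYB21a-OE2*. All values of *GmMYB21a-OE2* lay below all values of TL1, and the mean level was 79.4% of that of TL1. The log2 difference was -0.34 (standard error, SE, 0.08, with an adjusted p of 0.00788 in the quasi-likelihood test of edgeR). Each SE is the size of the log2 change divided by the square root of F, the edgeR test statistic. The call depended on the fit, since the adjusted p was 0.0510 in edgeR without replicate 1 of TL1 at NT and 0.0568 in the edgeR fit to all 12 libraries, with a log2 difference of -0.33.

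At HT the same GDSL gene was at 4.67, 4.78 and 4.44 CPM in TL1 and at 1.58, 2.29 and 2.1 CPM in *GmMYB21a-OE2*. The line groups did not overlap, and *GmMYB21a-OE2* held 43.0% of the TL1 level, a log2 difference of -1.17 (SE 0.18, without a test). Over both lines its level fell by 2.23 on the log2 scale with heat (SE 0.08, adjusted p = 9.14e-16 from edgeR). The heated mean was 28.9% of the NT mean in TL1 and 15.7% in *GmMYB21a-OE2*. Without replicate 3 of heated *GmMYB21a-OE2* the gene was at 41.8% of heated TL1 and at 15.2% of its own NT level.

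The polygalacturonase gene Glyma.04G157500 was at 24.2, 22.7 and 23.8 CPM in TL1 at NT, and at 18.1, 16.8 and 18.3 CPM in *GmMYB21a-OE2*. It was lower in *GmMYB21a-OE2* in every library, at 75.4% of the TL1 mean. The log2 difference was -0.41 (SE 0.07, adjusted p = 4.05e-04 from edgeR), and the call held in each edgeR fit that left out 1 library and in the fit to all 12 libraries.

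At HT Glyma.04G157500 was measured at 6.69, 6.15 and 7.30 CPM in TL1 and at 2.93, 3.36 and 3.05 CPM in *GmMYB21a-OE2*. The heated *GmMYB21a-OE2* libraries were the lowest of the 12, at 46.4% of heated TL1, with a log2 difference of -1.06 (SE 0.14, without a test). Heat lowered this polygalacturonase gene by a log2 change of -2.16 over both lines (SE 0.07, adjusted p = 8.45e-17 from edgeR). What remained at HT was 28.5% of the NT level in TL1 and 17.6% in *GmMYB21a-OE2*. Without replicate 3 of heated *GmMYB21a-OE2* the level was 46.9% of heated TL1 and 17.7% of NT.

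The other GH gene, Glyma.11G107600, is annotated as beta-galactosidase 13. Its NT levels were 12.63, 13.01 and 13.07 CPM in TL1 and 9.98, 9.87 and 9.55 CPM in *GmMYB21a-OE2*. The 2 lines did not overlap, and the mean of *GmMYB21a-OE2* was 76.0% of that of TL1. The log2 difference was -0.40 (SE 0.09, adjusted p = 0.00418 from edgeR), but in the edgeR fit to all 12 libraries the adjusted p was 0.0596.

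This beta-galactosidase gene had the deepest mean heat change of the 4. Its HT levels were 2.07, 1.97 and 2.65 CPM in TL1 and 0.765, 0.716 and 1.13 CPM in *GmMYB21a-OE2*, again with no overlap. Replicate 3 of heated *GmMYB21a-OE2* had the highest of the 3 values, and the log2 line difference at HT was -1.31 with it (SE 0.26, without a test) and -1.54 without it. Averaged over the lines the gene fell by 3.01 on the log2 scale (SE 0.11, adjusted p = 4.95e-16 from edgeR). TL1 kept 17.3% of its NT level and *GmMYB21a-OE2* 8.87%. The heated level of *GmMYB21a-OE2* was 38.9% of that of TL1, and without replicate 3 it was 33.2% of TL1 and 7.56% of NT.

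The GT gene Glyma.03G229800 was the least abundant in counts and the only one of the 4 that was higher in *GmMYB21a-OE2* at NT. It was at 2.76, 2.67 and 1.66 CPM in TL1 and at 5.51, 5.28 and 4.54 CPM in *GmMYB21a-OE2*, with no overlap. The log2 difference was 1.10 (SE 0.18, adjusted p = 1.65e-04 from edgeR), and it passed the threshold in every edgeR and DESeq2 fit run.

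At HT this GT gene was at 0.644, 1.27 and 1.31 CPM in TL1 and at 0.607, 0.429 and 0.231 CPM in *GmMYB21a-OE2*. These are few reads, with counts of 23, 50 and 44 in TL1 and of 23, 18 and 9 in *GmMYB21a-OE2*. The exact Poisson 95% interval of the lowest count, 9, ran from 4.12 to 17.1, and such intervals cover counting error only. Replicate 1 of each line had 23 reads, so that the 2 groups were kept apart only by the scaling to library size.

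The log2 line difference of the GT gene at HT was -1.30 (SE 0.41, without a test). It was -1.004 without replicate 3 of heated *GmMYB21a-OE2*, the library with 9 reads, and -1.65 without replicate 1 of that group. Over both lines the gene fell by 2.36 on the log2 scale with heat (SE 0.21, adjusted p = 1.40e-09 from edgeR). Its heated level was 45.4% of the NT level in TL1 and 8.26% in *GmMYB21a-OE2*, so the 2 lines were farther apart in their heat change than for any other of the 4 genes. The heated level of *GmMYB21a-OE2* was 39.3% of that of TL1, and without replicate 3 it was 48.3% of TL1 and 10.1% of NT.

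The calls can be read against all genes tested. At NT, 3 of the 4 genes were called lower in *GmMYB21a-OE2*, where 4.86% of 41292 genes were, and 1 was called higher, where 5.97% were. With heat all 4 were called lower, a direction that 38.2% of 42839 genes took, while 38.1% were called higher. The heated libraries on which the genes were chosen enter this averaged heat change. In TL1 alone the fitted heat changes of the 4 genes were -1.79, -1.81, -2.54 and -1.14 in the order used above, without a test. At HT, the comparison that chose them, 3.7% of 41260 genes were called lower in *GmMYB21a-OE2*. All 4 genes passed the filter on low counts in each comparison.

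**Figure D2:**
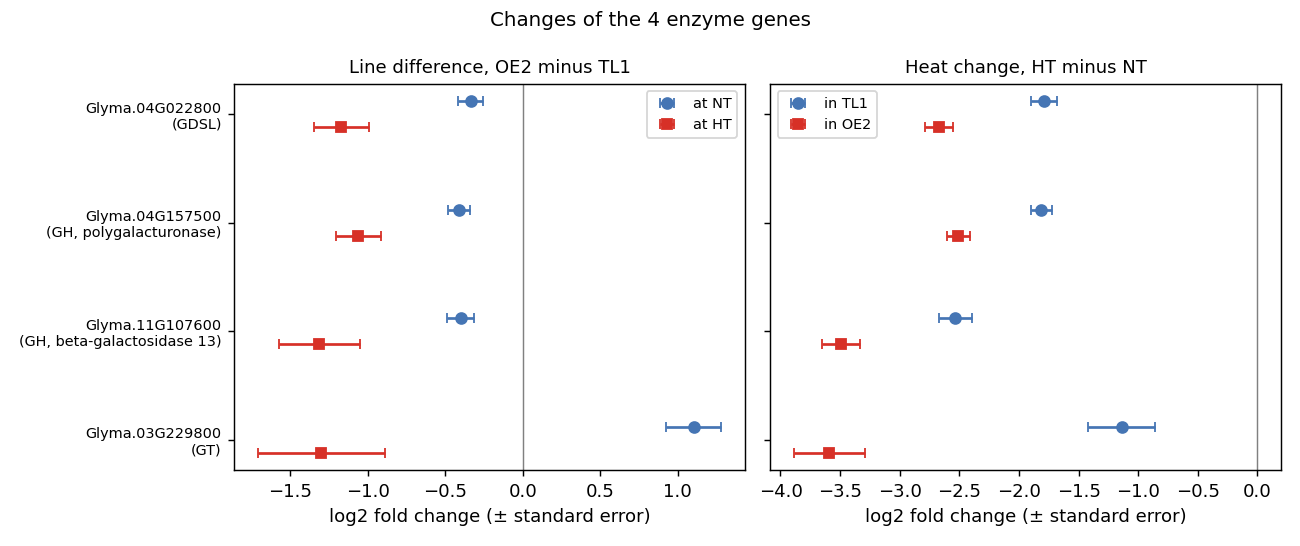
Log2 fold changes of the 4 genes with standard errors derived from the edgeR F values, as the line difference at NT and HT (left) and as the heat change within each line (right). All points lie below 0 except the GT gene's line difference at NT, at 1.10, and in the right panel the OE2 point lies left of the TL1 point for each gene.

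Within the lines, the log2 heat change of Glyma.04G022800 was -1.79 in TL1 and -2.67 in *GmMYB21a-OE2*, and that of Glyma.04G157500 was -1.81 and -2.51. For Glyma.11G107600 the values were -2.54 and -3.49, and for the GT gene -1.14 and -3.59. The order of the lines was the same for the 4 genes, as the choice of the genes favours, and the gap was 0.70 to 0.96 in size for the GDSL and GH genes and 2.45 for the GT gene. Without replicate 3 of heated *GmMYB21a-OE2* the changes in that line were -2.70, -2.49, -3.72 and -3.30 in the same order. The changes averaged over the lines were then -2.25, -2.15, -3.13 and -2.22.

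The polygalacturonase gene has close company in its family. The readable annotation, which covers 578 genes that the study called different at HT, holds 4 GH family 28 genes. Glyma.04G157600 and Glyma.04G157700 carry the 2 identifiers that follow Glyma.04G157500, and Glyma.14G006100 has an identifier of another chromosome. Their levels could share reads if the copies are alike, which the counts alone do not show.

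At NT these 3 further polygalacturonase genes were lower in *GmMYB21a-OE2* too, with log2 differences of -0.34 for Glyma.04G157600 (adjusted p = 0.00782 from edgeR), -0.36 for Glyma.04G157700 (adjusted p = 0.00369 from edgeR) and -0.44 for Glyma.14G006100 (adjusted p = 0.0250 from edgeR). Only the call of Glyma.04G157700 among them held in every edgeR fit that left out 1 library. In the fit to all 12 libraries the adjusted p was 0.0677 for Glyma.04G157600 and 0.140 for Glyma.14G006100. Averaged over the lines, heat lowered them by log2 changes of -2.20, -2.24 and -2.76 in the same order, each with an adjusted p of at most 2.46e-13 from edgeR. The summed counts of the 4 genes are free of any exchange of reads among them. The sum was 70.2 ± 2.67 CPM in TL1 and 54.1 ± 3.26 CPM in *GmMYB21a-OE2* at NT, and 19.5 ± 1.01 and 8.55 ± 0.56 CPM at HT (SD, n = 3 each). It differed between the lines at NT by a log2 value of -0.38 (SE 0.06, adjusted p = 5.13e-05 from edgeR) and fell by 2.26 with heat (SE 0.05, adjusted p = 1.18e-18 from edgeR).

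The makeup of this sum hardly moved for the chosen gene. Glyma.04G157500 gave 33.5% of it in TL1 and 32.8% in *GmMYB21a-OE2* at NT, and 34.5% and 36.4% at HT. Glyma.14G006100, the smallest contributor, went from 12.3% in TL1 at NT to 7.89% in heated *GmMYB21a-OE2*.

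**Figure D3:**
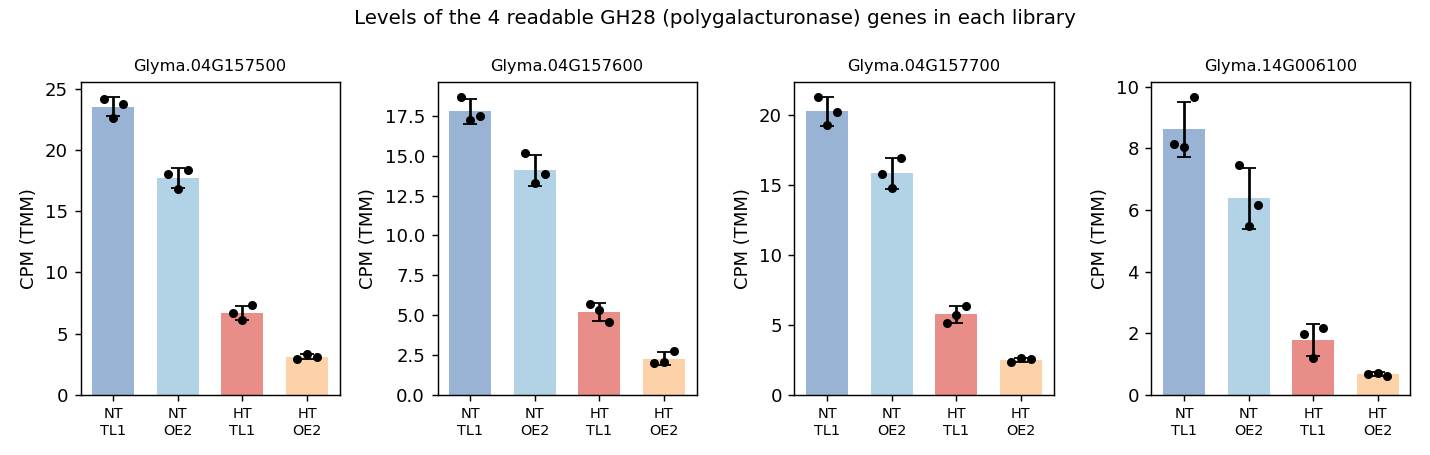
CPM of the 4 readable GH family 28 genes in each library, on linear axes from 0, with means as bars and the SD over 3 libraries as error bars. The 4 panels share one order of group means, from TL1 at NT as the highest to heated OE2 as the lowest.

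The other 2 readable GH family 35 genes did not share the pattern of Glyma.11G107600. Averaged over the lines, the beta-galactosidase genes Glyma.07G106500 and Glyma.07G106700 rose with heat by log2 changes of 1.43 each (adjusted p = 0.00254 and 1.82e-04 from edgeR). The heat change was 0.50 (SE 0.59) and 0.20 (SE 0.42) in TL1, and 2.37 (SE 0.51) and 2.66 (SE 0.41) in *GmMYB21a-OE2*, the line in which the study selected them as high. The averages were thus carried by libraries that entered the selection, and their adjusted p do not show a rise in TL1. Both genes had more in heated *GmMYB21a-OE2* than in heated TL1, with log2 differences of 1.91 and 1.63. Their levels were low, at most 1.69 CPM in any library. At NT Glyma.07G106700 was not called (log2 difference -0.87, adjusted p = 0.275 from edgeR) and Glyma.07G106500 did not pass the filter.

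The 2 readable GDSL genes, both annotated as GDSL esterase/lipase, also differed from Glyma.04G022800. Glyma.02G264100 rose with heat by a log2 change of 2.096 averaged over the lines (adjusted p = 9.38e-07 from edgeR), with 1.29 in TL1 and 2.90 in *GmMYB21a-OE2*, and its line difference at NT was -0.26 (adjusted p = 0.796 from edgeR). Glyma.18G095100 was lower in *GmMYB21a-OE2* at NT, with a log2 difference of -1.01 (adjusted p = 0.00149 from edgeR), and had a heat change of -0.19 averaged over the lines (adjusted p = 0.247 from edgeR), made up of -1.25 for TL1 and 0.86 for *GmMYB21a-OE2*. At HT both were higher in *GmMYB21a-OE2*, by 1.39 and 1.15 on the log2 scale.

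Across the 19 readable glycosyl hydrolases, which include both GH genes described here, 8 rose and 8 fell with heat averaged over the lines and 3 were not called, shares near the 38.1% and 38.2% of all genes tested. The median log2 change was -0.10 against 9.54e-04 over all genes tested. Of the 8 that rose, 4 had a heat change below 0 in TL1, and 12 of the 19 were above 0 in *GmMYB21a-OE2* against 4 of 19 in TL1. Those that fell were the 4 polygalacturonases, Glyma.11G107600, the invertase Glyma.03G197400, Glyma.20G134200 of GH family 10 and Glyma.13G173200, a glucan endo-1,3-beta-glucosidase of the type that frees pollen from callose. The last of these had a heat change of -2.90 in TL1 and of 0.25 in *GmMYB21a-OE2*, so it was lower with heat in TL1 alone. At NT 5 of the 17 that could be tested were called lower in *GmMYB21a-OE2*, namely the 4 polygalacturonases and Glyma.11G107600, and 0 were called higher by edgeR. Of all genes tested, 4.86% were called lower there and 5.97% higher. At an unadjusted p below 0.05 the numbers were 6 lower and 0 higher, and DESeq2 called 5 lower and 0 higher. The number lower at NT was 3 without replicate 1 of TL1 and 2 in the edgeR fit to all 12 libraries. At HT, as the study's own selection fixed, 12 of the 19 were higher in *GmMYB21a-OE2* and 7 lower.

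Cell-wall invertases, which split sucrose outside the cell, were also lower in heated *GmMYB21a-OE2*. At HT their log2 differences were -1.63 for Glyma.03G197400 and -1.20 for Glyma.15G024600. With heat Glyma.03G197400 fell by 2.05 (adjusted p = 2.27e-10 from edgeR). Glyma.15G024600 rose by 0.66 averaged over the lines (adjusted p = 2.89e-04 from edgeR), with 1.31 in TL1 and 0.01 in *GmMYB21a-OE2*. Neither was called at NT (adjusted p = 0.228 and 0.910 from edgeR).

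Among the 6 readable glycosyltransferases, beside which the GT gene Glyma.03G229800 can be set, 3 rose with heat averaged over the lines, by log2 changes of 0.49 for Glyma.05G175000, 0.42 for Glyma.08G132300 and 0.25 for Glyma.01G038500 (adjusted p of at most 0.00237 from edgeR), and the other 3 were not called. All 6 had a heat change below 0 in TL1, from -1.69 to -0.09, and above 0 in *GmMYB21a-OE2*, from 0.75 to 1.42. The average therefore holds changes of opposite sign, and its adjusted p do not show a rise in TL1. Of all genes tested, 38.1% rose and 38.2% fell with heat averaged over the lines. The GT gene was below 0 in both lines. At NT edgeR called 0 of the 6, and 2 had an unadjusted p below 0.05. DESeq2 also called 0. Among the 6 UDP-glucosyltransferases, which attach sugars to small molecules, 3 fell and 1 rose with heat averaged over the lines, and 1 of those that fell had a heat change above 0 in *GmMYB21a-OE2*. The soyasapogenol glucuronide galactosyltransferase gene Glyma.01G046300 was the only one of them called at NT, with a log2 difference of 0.68 (adjusted p = 4.34e-05 from edgeR).

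**Figure D4:**
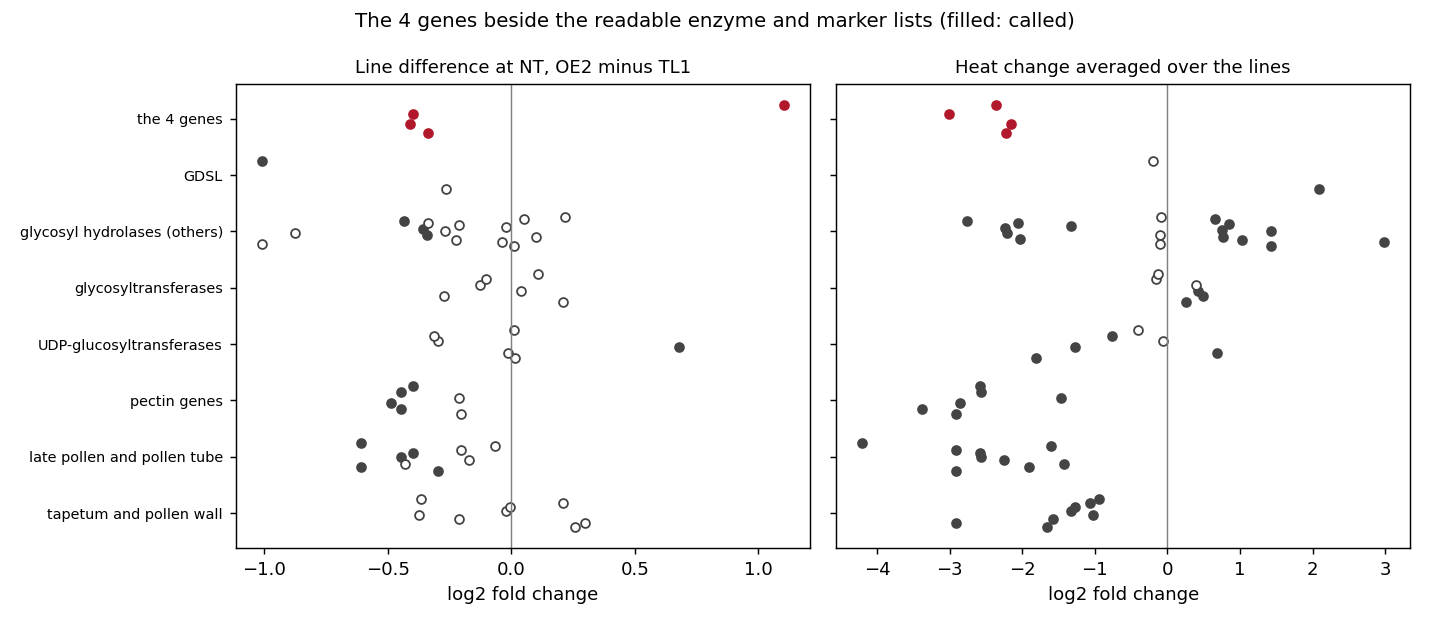
Log2 fold changes of single genes in the readable lists, for the line difference at NT (left) and the heat change averaged over the lines (right). Filled points had an adjusted p below 0.05 and open points did not, the 4 genes described here are red and left out of the rows below, and a gene on 2 lists is drawn in both rows. The red points lie between -3.01 and -2.16 in the right panel, within the range of the pectin and late pollen genes.

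The 6 readable pectin genes, the pectate lyase, pectinesterase and inhibitor genes that act on the same polymer as the polygalacturonase, had the same directions as the GDSL and GH genes. All 6 fell with heat, with a median log2 change of -2.72 against 9.54e-04 over all genes tested, and 4 of the 6 were called lower in *GmMYB21a-OE2* at NT. Of all genes tested, 38.2% were called lower with heat and 4.86% lower at NT. Glyma.10G009000, a pectinesterase gene, had the deepest heat change of the list at -3.38 (adjusted p = 8.75e-16 from edgeR) and a line difference of -0.45 at NT (adjusted p = 0.00392 from edgeR). The NT count was less firm, with 2 of 6 called without replicate 1 of TL1 at NT and 0 of 6 in the edgeR fit to all 12 libraries. All 6 had an unadjusted p below 0.05 in the 6 NT libraries.

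Among markers of the cells in a bud, those of late pollen had the directions of the GDSL and GH genes, whereas those of the tapetum were higher in heated *GmMYB21a-OE2*. In bulk samples, fewer cells of a type and less RNA per cell cannot be told apart. Both marker lists were picked by hand from genes that the study called different at HT, so genes that did not differ there could not enter. The shares over all genes tested are therefore not a matched background for them. A list of 9 late pollen and pollen tube genes, 3 of them also on the pectin list, held all 9 called lower with heat, where 38.2% of all genes tested were. At NT 5 of 9 were called lower in *GmMYB21a-OE2*, where 4.86% of all genes tested were. That number was 3 without replicate 1 of TL1 and 1 in the edgeR fit to all 12 libraries. Its summed level ranged from 101 to 110 CPM in TL1 and from 80.6 to 86.1 CPM in *GmMYB21a-OE2* at NT, and from 20.6 to 24.1 and from 7.39 to 9.25 CPM at HT. The mean of *GmMYB21a-OE2* was 78.3% of that of TL1 at NT and 38.2% at HT, beside 75.4% to 79.4% and 38.9% to 46.4% for the GDSL and GH genes.

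A second list of 8 tapetum and pollen wall genes, 1 of them also a glycosyl hydrolase, was called lower with heat in all 8 genes when averaged over the lines, where 38.2% of all genes tested were. In *GmMYB21a-OE2* alone, 2 of the 8 had a heat change above 0. The sum was 81.8 to 108 CPM in TL1 and 76.1 to 106 CPM in *GmMYB21a-OE2* at NT. At HT it was 17.9 to 19.2 CPM in heated TL1 and 62.1 to 84.7 CPM in heated *GmMYB21a-OE2*, which overlapped its NT range. Without replicate 3 it was 62.1 to 69.4 CPM, below that range. TL1 kept 20.3% of its NT sum and *GmMYB21a-OE2* kept 77.7%, and 0 of the 8 were called at NT by edgeR. At an unadjusted p below 0.05 the number was 2, DESeq2 called 0, and leaving out 1 library gave at most 3 called higher. None of the 17 markers had a count of 0 in any library. The part of either cell type in the levels of the 4 genes was not tested.

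Set against the late pollen sum, the beta-galactosidase gene changed little, at 12.2 ± 0.68% of the sum in TL1 and 11.9 ± 0.68% in *GmMYB21a-OE2* at NT and at 10.04 ± 1.74% and 10.2 ± 2.44% at HT (SD, n = 3 each). The GDSL gene stood at 15.2% and 15.4% at NT and at 20.9 ± 2.04% and 23.2 ± 1.67% at HT. The polygalacturonase gene stood at 22.3% and 21.5% at NT and at 30.2 ± 2.62% and 36.7 ± 2.79% at HT. For the GT gene the ratio was 2.24 ± 0.59% in TL1 and 6.20 ± 0.82% in *GmMYB21a-OE2* at NT, and 4.91 ± 1.94% and 5.14 ± 2.85% at HT, where the lines lay within the spread of their libraries. Without replicate 3 of heated *GmMYB21a-OE2* the ratios there were 23.1% for the GDSL gene, 38.0% for the polygalacturonase gene, 9.05% for the beta-galactosidase gene and 6.43% for the GT gene.

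**Figure D5:**
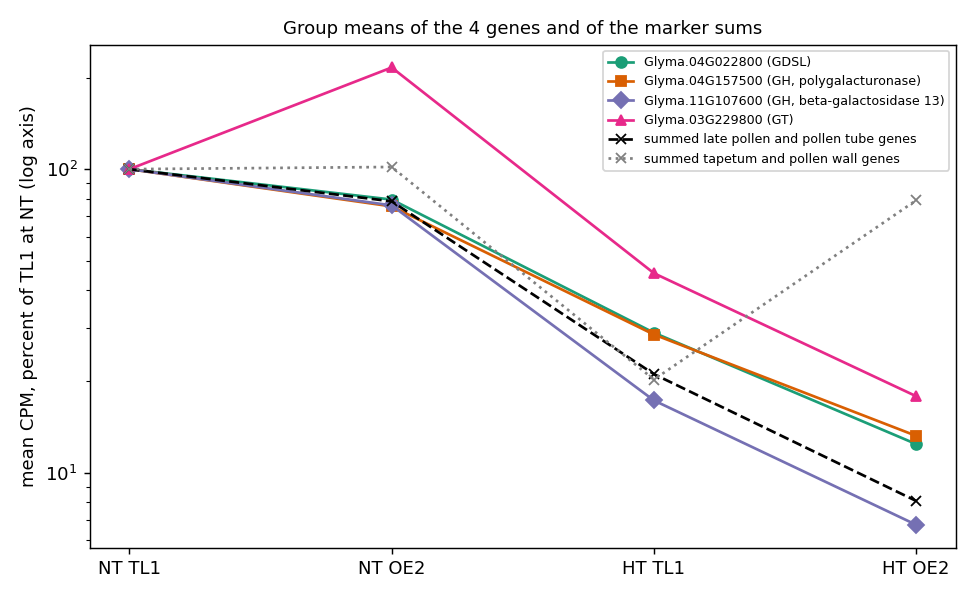
Group mean of each of the 4 genes and of the 2 marker sums, as a percent of TL1 at NT on a log axis, joined by lines for reading only. The GDSL and GH genes step down in the same order as the summed late pollen genes. In heated OE2 that sum reached 38.2% of heated TL1, beside 43.0% for the GDSL gene, 46.4% for the polygalacturonase gene and 38.9% for the beta-galactosidase gene. The summed tapetum genes turn upward from heated TL1 to heated OE2. Genes and markers were chosen with the line difference at HT known, so the steps between the heated lines are a description.

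The likeness of the 4 genes over the 12 libraries was read from Pearson's r of log2 CPM, as a description, since all libraries share the heat change. The GDSL and GH genes were alike at r = 0.988 to 0.995, and the GT gene was less like them, at r = 0.867 to 0.868. Of 36231 genes with a mean of at least 1 CPM, 1474 had an r of at least 0.95 with Glyma.04G022800, 1822 with Glyma.04G157500, 2186 with Glyma.11G107600 and 162 with the GT gene. Among the 5 genes most like the GDSL gene were the pectinesterase PPME1 gene Glyma.01G066000 (r = 0.995), the protein kinase gene Glyma.13G228500 (r = 0.995) and the polygalacturonase gene itself (r = 0.995). Among those most like Glyma.04G157500 were its neighbour Glyma.04G157700 (r = 0.998) and the PPME1 gene Glyma.01G066100 (r = 0.996), PPME1 being a pectinesterase of pollen in *Arabidopsis*. The 5 genes most like each of the other 2 have no name in the readable annotation. Late pollen genes had a median r of 0.980 to 0.982 with the GDSL and GH genes and of 0.858 with the GT gene, and tapetum genes one of 0.327 to 0.423 with all 4. These markers came from genes that the study called different at HT. In heated *GmMYB21a-OE2* the late pollen genes were all lower, like the 4 genes, and the tapetum genes all higher. The contrast in r is therefore partly set by that choice.

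By the order of identifiers, only the polygalacturonase gene had neighbours with its pattern. Of the 14 other neighbours, the pair of identifiers before and after each gene, 10 could be tested at NT, and their lowest adjusted p there was 0.132 from edgeR. Glyma.04G022900, next to the GDSL gene and itself lower with heat, had a heat change of -1.50 (adjusted p = 1.83e-09 from edgeR).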

How the data were processed

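The authors deposited 1 table of whole-number read counts per gene, not normalized, for 12 libraries. The submitters' processing notes name StringTie 2.1.3b without a role, and the aligner, counting program, use of strand and genome build are not given in the sources used here. Overlapping, antisense and near-identical genes can therefore share reads. From these deposited counts, CPM and log2 fold changes were computed in edgeR 4.0.16 under R 4.3.3, with TMM normalization. The line difference was fitted to the 6 libraries of each temperature and the heat change, averaged over the lines, to all 12, with filterByExpr, quasi-likelihood tests and Benjamini-Hochberg adjustment over all genes tested. A call had an adjusted p below 0.05, where the study's own threshold also asked for a fold. Likeness used log2 CPM with a prior count of 2. The fits were tested on simulated counts. Alternatives were RLE size factors, DESeq2 1.42.0, no filter on low counts, a replicate block, 1 fit to all libraries for the line differences, each library left out in turn, and a minimum log2 fold of 1 in size beside the adjusted p.

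The 4 genes and all lists were chosen with earlier results of these data known. The enzyme lists came from annotation words in 578 readable rows of genes that the study called different at HT. The late pollen and tapetum marker lists were picked by hand from the same rows, by annotated name, and not by a word search. The line direction of all lists at HT was fixed by that selection. The genes named are the 4, all readable genes of their families and the invertases, up to 4 genes of other lists with the largest mean heat change, identifier neighbours and the 5 most alike genes. Glyma.20G134200 falls outside that rule and was named after its values were seen. Sequences, coordinates and gene lengths were not used here, so levels are compared between samples and not between genes.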

Additional observations from a re-analysis of the deposited data

Results flagged for a closer look

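The GT gene Glyma.03G229800 was higher in *GmMYB21a-OE2* at NT, with a log2 difference of 1.10, and lower at HT, with -1.30, and the lines did not overlap at either temperature. The difference between these line differences was not tested, since the genes were chosen on one of them, and replicate 1 of each heated line had the same 23 reads.

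Among genes of the same families, the GDSL gene Glyma.18G095100 had the reverse order, with a log2 line difference of -1.01 at NT and 1.15 at HT. Its heat change was 0.86 in *GmMYB21a-OE2* and -1.25 in TL1. The glycosyltransferase genes Glyma.05G175000 and Glyma.01G038500 also had heat changes of opposite sign, and in each line the HT and NT libraries did not overlap, with 1.28 and 0.75 in *GmMYB21a-OE2* and -0.30 and -0.24 in TL1. In all 6 readable glycosyltransferases the fitted heat change was below 0 in TL1 and above 0 in *GmMYB21a-OE2*, from -1.69 to -0.09 and from 0.75 to 1.42. None of these differences was tested, because the study selected these genes on the line difference at HT.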

How the results depend on the processing

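With heat, all 4 genes and the summed polygalacturonase copies stayed lower and called in every alternative run. At NT the GT gene kept its call in all 12 alternatives. In the edgeR fit to all 12 libraries at NT, the log2 difference was -0.33 for Glyma.04G022800 and -0.40 for Glyma.11G107600, neither called, so 1 of the 4 genes, 2 glycosyl hydrolases, 0 pectin genes and 1105 of all genes were called lower, and 1159 of all genes higher. Asking also for a log2 fold of 1 or more in size ended the NT calls of Glyma.04G022800 (-0.34), Glyma.04G157500 (-0.41), Glyma.11G107600 (-0.40) and the polygalacturonase sum (-0.38), leaving 0 of the 4 genes, 0 glycosyl hydrolases, 0 pectin genes and 293 of all genes lower and 99 higher. With that fold, 4 glycosyl hydrolases rose with heat, and 6198 of all genes fell and 3869 rose.

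With 1 library left out, the NT difference of Glyma.04G022800 ran from -0.36 to -0.32 and lost its call without replicate 1 of TL1. The numbers called lower at NT ran from 3 to 5 for glycosyl hydrolases, from 2 to 4 for pectin genes and from 1161 to 2335 for all genes, and from 1438 to 3296 called higher, each lowest without replicate 1 of TL1. Without replicate 1 of *GmMYB21a-OE2* at NT the all-gene counts were highest. Among genes that were not called, the NT difference of Glyma.15G024600 ran from -0.11 to 0.22 and that of Glyma.02G264100 from -0.76 to 0.13. The cause was not tested.

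Deviations of same-numbered libraries correlated at -0.253 to 0.214. The labels do not say whether equal replicate numbers mark paired samples, and 3 libraries per group cannot settle it. With the replicate block the NT differences of the 4 genes were -0.34, -0.41, -0.40 and 1.12, in the order used above, with the calls as without it. Depth limits the GT gene at HT, with at most 50 reads a library.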

Other observations

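Some other genes of the readable lists had the directions of the GDSL and GH genes, and others did not. Glyma.09G284200, annotated as sugar transport protein 10 and on the late pollen list, fell by 4.21 on the log2 scale with heat (standard error 0.11, adjusted p = 4.97e-18 from edgeR) and was lower in *GmMYB21a-OE2* at NT, with a log2 difference of -0.61 (adjusted p = 1.53e-05 from edgeR). The Olee1-like gene Glyma.15G082300, of a family of pollen allergens, fell by 2.92 with heat (adjusted p = 9.24e-18 from edgeR), with -0.30 at NT (adjusted p = 0.00855 from edgeR, and 0.0930 without replicate 1 of TL1). Of the 5 xyloglucan endotransglucosylase genes (GH family 16), which cut and rejoin xyloglucan chains, 3 rose with heat and 0 fell when averaged over the lines, where 38.1% and 38.2% of all genes did. All 5 had a heat change below 0 in TL1 and above 0 in *GmMYB21a-OE2*, so the averaged rise does not hold for TL1. Their summed level went from 9.32 to 7.30 CPM in TL1 and from 8.60 to 23.6 CPM in *GmMYB21a-OE2*, and edgeR called 0 of 5 at NT, with 1 at an unadjusted p below 0.05.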
